A study of Mus musculus with 4 samples.

Results

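Glucose transport and glycolysis were followed through 10 genes, chosen by name out of the 17712 genes in the deposited table: Slc2a1, Hk1, Hk2, Gpi1, Pfkl, Aldoa, Tpi1, Gapdh, Pgk1 and Ldha. RNA from mouse forelimbs was sequenced in 2 Shh null libraries and in 2 libraries from wild-type littermates. Both genotypes were Swiss Webster, an outbred stock, collected at 33 to 35 somites and labelled E10.25 by age and E10.5 by source. The labels do not describe the null allele, and the design text calls the 2 libraries of a genotype technical replicates, so any p-value here speaks of library-to-library spread, which may be technical. Forelimbs are a mixture of mesenchyme, ectoderm, vessels and blood, and fewer cells of a type cannot be told apart from less RNA per cell.

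Glycolysis splits glucose into pyruvate in the cytosol and yields ATP without oxygen. Glucose enters through carriers of the Slc2a family and is trapped by hexokinase, then passes through a preparatory phase that ends in triose phosphates and a pay-off phase that makes ATP and pyruvate. Lactate dehydrogenase turns pyruvate into lactate and restores the NAD+ that the pathway consumes. Several steps have more than one isozyme, each from its own gene, and many of these genes are known targets of the hypoxia-inducible factors and of Myc.

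The libraries held 23206944 and 21489093 assigned reads in Shh null and 29620468 and 18456502 in wild type, and the 10 genes were covered by 732 to 31874 reads per library. Shh itself was at 3.15 and 2.42 CPM (counts per unit of 1e+06 reads, scaled by the authors) in Shh null and at 11.4 and 7.88 CPM in wild type. Replicate libraries were not copies of one another: the chi-square per degree of freedom between them was 14.8 in Shh null and 22.4 in wild type. Between libraries of unlike genotype it ran from 17.2 to 45.1, so the ranges within and between genotypes overlapped. Of 7 forelimb mesenchyme markers, 5 rose and 0 fell in Shh null (limma, adjusted p under 0.05), and their summed level was 1579 and 1545 CPM in Shh null and 1032 and 1074 CPM in wild type. The hindlimb marker Pitx1, too low to be tested, was at 0.25 and 0.46 CPM in Shh null and at 0.04 and 0.11 CPM in wild type. Tbx4, the other hindlimb marker, was tested and lay in the other direction. Both Shh null libraries were below both wild-type libraries (limma log2 fold change −0.21). Markers of embryonic red cells set 1 wild-type library apart: the 8 found in the table summed to 3845 and 6513 CPM in Shh null, and to 11283 and 3018 CPM in wild type, and 0 of the 8 were called. Of 6 tested macrophage markers 1 rose, and 5 were above wild type in both Shh null libraries; the list summed to 20.9 and 20.1 CPM in Shh null and 11.8 and 10.1 CPM in wild type, and before adjustment 4 had p under 0.05, all upward. Of 2 tested neural crest markers 1 rose. Of the markers of endothelium (6), surface ectoderm (6), muscle precursors (3), trunk mesoderm (3) and hindlimb (1) none was called by limma, edgeR or DESeq2, with 1 higher in ectoderm, 1 higher in muscle precursors and 2 lower in trunk mesoderm at an unadjusted p under 0.05. Over all tested genes, limma called 2.48%, edgeR 2.45% and DESeq2 3.98%. Both Shh null libraries were above both wild-type libraries in 25.1% of them and below in 25.0%. At an unadjusted limma p under 0.05, 9.50% were higher and 9.02% lower. The part of the tissue differences in the values below was not tested.

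No gene of the 10 was called in Shh null against wild type by limma at an adjusted p under 0.05, where 2.48% of the 13224 tested genes were (1.24% lower and 1.24% higher). At an unadjusted p under 0.05, 3 were lower (9.02% of all tested genes) and 1 was higher (9.50%). With the reads recovered from the deposited values, edgeR called 0 of the 10 (2.45% of all) and DESeq2 called 1, Gapdh (3.98% of all). The mean log2 level of 9 of the 10 genes was below that of wild type, as for 50.1% of all tested genes, and Hk1 lay above it. In 6 genes (Slc2a1, Hk2, Aldoa, Tpi1, Gapdh and Pgk1) both Shh null libraries were below both wild-type libraries, which held for 25.0% of all tested genes. Hk1 was the 1 gene with both Shh null libraries above both wild-type libraries (25.1% of all tested genes), and Gpi1, Pfkl and Ldha overlapped. In the authors' deposited table none of the 10 had a false discovery rate under 0.05, against 4.01% of its 17712 genes. The median log2 fold change of the 10 genes was −0.19, against −0.0005 over all tested genes.

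Abundant genes as a whole lay in the same direction. Of the 2364 tested genes with a mean of at least 100 CPM, 45.1% were lower in both Shh null libraries, 9.69% were higher in both, 75.5% had a mean below wild type, and the median log2 fold change was −0.11. The 8 of the 10 genes above this level included 5 with both Shh null libraries below both wild-type ones. With quantile normalization, which sets the distributions of all libraries equal, the median of the 10 genes was −0.09, and Hk2, Aldoa and Gapdh were the 3 genes (in place of 6) with both Shh null libraries below both wild-type ones, against 22.9% of all tested genes under that normalization. The part of abundance in the lower values was not tested.

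**Figure D1:**
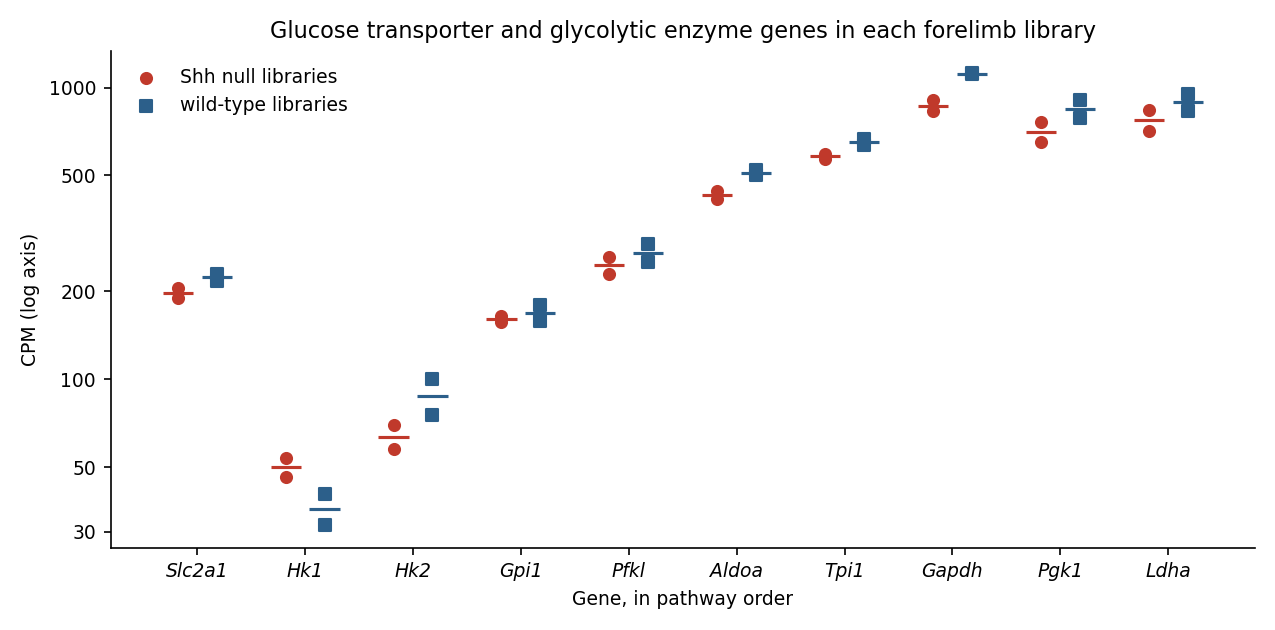
Level of each of the 10 genes in CPM on a log axis, in pathway order, with the 2 Shh null libraries as circles and the 2 wild-type libraries as squares, and the group mean as a line. Hk1 is the gene with both Shh null libraries above wild type, and Gapdh, Aldoa, Hk2, Tpi1, Slc2a1 and Pgk1 have both below.

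Levels spanned more than a factor of 10 along the pathway when divided by exon length. Gapdh led at 580 ± 36.3 CPM per kb in Shh null and 747 ± 2.33 CPM per kb in wild type (SD, n = 2 each). Ldha followed at 408 ± 48.6 in Shh null and 471 ± 43.5 CPM per kb in wild type, and Pgk1, at 387 ± 43.4 in Shh null and 462 ± 46.1 CPM per kb in wild type, overlapped with it in both genotypes. Tpi1 came next at 330 ± 9.40 in Shh null and 369 ± 11.6 CPM per kb in wild type, and Aldoa at 235 ± 9.74 in Shh null and 280 ± 7.27 CPM per kb in wild type. A second tier held Pfkl, Slc2a1 and Gpi1. Pfkl stood at 65.9 in Shh null and 72.6 CPM per kb in wild type, Slc2a1 at 60.7 and 68.7 CPM per kb in the same groups, and Gpi1 at 55.9 and 58.6 CPM per kb. Pfkl and Slc2a1 overlapped in both genotypes, whereas Slc2a1 and Gpi1 did not. The hexokinases stood last, Hk2 at 11.3 ± 1.503 in Shh null and 15.6 ± 3.10 CPM per kb in wild type, and Hk1 at 10.30 ± 1.11 in Shh null and 7.41 ± 1.27 CPM per kb in wild type. They overlapped in Shh null and were apart in wild type. The order of the 10 genes by mean was the same in both genotypes.

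Slc2a1 encodes GLUT1, the carrier for basal glucose uptake (ENSMUSG00000028645.11, chromosome 4, 119108711 to 119137983, plus strand, mm10). It was measured at 206 and 190 CPM in Shh null and at 217 and 230 CPM in wild type. Both Shh null libraries were lower, by 0.18 ± 0.10 on the log2(CPM + 1) scale (SE; limma log2 fold change −0.18, adjusted p = 0.36). Slc2a3, the gene of the high-affinity carrier GLUT3, was at 226 and 203 CPM in Shh null and 295 and 243 CPM in wild type (adjusted p = 0.185 by limma). Slc2a4, whose product GLUT4 is the insulin-responsive carrier of muscle and fat, lay in the other direction, at 70.0 and 54.3 CPM in Shh null and 44.3 and 49.1 CPM in wild type (adjusted p = 0.156). The other tested carriers Slc2a8, Slc2a10 and Slc2a12 had means of 8.49, 3.84 and 2.32 CPM in Shh null and 5.86, 2.83 and 2.07 CPM in wild type. Per kb of exon, Slc2a1 made up 43.5% and 45.2% of the sum of Slc2a1, Slc2a3 and Slc2a4 in Shh null and 42.5% and 47.2% in wild type, so its share overlapped between the genotypes.

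The hexokinases, which phosphorylate glucose and so keep it in the cell, lay in opposite directions. HK1 is the constitutive form, and HK2 is the inducible form known from muscle and growing cells. Hk2 (ENSMUSG00000000628.10, chromosome 6, 82725025 to 82774454, minus strand) was at 57.6 and 69.6 CPM in Shh null and at 75.4 and 99.99 CPM in wild type. Its mean was 1.38-fold lower in Shh null, 63.6 ± 8.44 against 87.7 ± 17.4 CPM in wild type (SD, n = 2). The log2 fold change was −0.45 with an SE of 0.15 (adjusted p = 0.146 by limma). Hk1 (ENSMUSG00000037012.18, chromosome 10, 62268855 to 62379908, minus strand) was at 53.7 and 46.2 CPM in Shh null and at 31.6 and 40.3 CPM in wild type. Its mean of 49.95 ± 5.37 CPM in Shh null and 36.0 ± 6.16 CPM in wild type gave a log2 fold change of 0.47 ± 0.14 SE (limma adjusted p = 0.12). In the authors' deposited table the log2 fold changes were −0.46 for Hk2 (false discovery rate 0.0883) and 0.48 for Hk1 (0.0789).

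Neither hexokinase gene passed in the limma fit of all libraries with genotype as its only term. The fits that left out 1 wild-type library are given here by effect size. In those fits the residual spread comes from the 2 Shh null libraries alone, and the lone wild-type library is assumed to vary like them. Without wild type 1, the library with the high red-cell markers, Hk2 fell by 0.65 on the log2 scale. Over all alternatives its log2 fold change ran from −0.65 to −0.25. Without wild type 2, Hk1 rose by 0.64 on that scale, and its log2 fold change ran from 0.30 to 0.64 over all alternatives. Leaving out wild type 2 makes the library with the high red-cell markers the lone wild-type one. In that fit the median log2 fold change was −1.14 over the red-cell markers and 0.59 over the macrophage markers. Without wild type 1 the median over the red-cell markers was 0.59. Their part in the hexokinase values was not tested. The ratio of Hk2 to Hk1 reads was 1.07 and 1.51 in Shh null and 2.39 and 2.48 in wild type, a mean of 1.29 ± 0.31 in Shh null and 2.43 ± 0.07 in wild type (SD, n = 2). Per kb of exon, Hk2 made up 48.1% and 56.6% of the hexokinase pair in Shh null and 67.3% and 68.2% in wild type. The groups did not overlap, and the means differed by −15.4 percentage points, Shh null minus wild type (exact two-sided permutation p = 0.333, the smallest that 2 against 2 libraries can give). The summed level of the pair was 111 and 116 CPM in Shh null and 107 and 140 CPM in wild type, which overlapped. A further hexokinase gene, Hkdc1, was near the detection limit, at 1.49 and 1.46 CPM in Shh null and 0.49 and 0.44 CPM in wild type (adjusted p = 0.0769 by limma).

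The start regions of this pair are shown because the 2 genes lay in opposite directions. Each line is the 250 bases before an annotated start, from the RefSeq promoter table of build GRCm38.p6, read 5′ to 3′ on the gene's strand. Capitals mark every match, on either strand, to ACGTG or GCGTG, the core that hypoxia-inducible factors bind, or to CACGTG, the E-box of Myc, which contains ACGTG. Hk2 is chr6:82774455-82774704 and Hk1 is chr10:62340422-62340671, the one of its 2 listed starts that holds a match; both are on the minus strand.
Hk2: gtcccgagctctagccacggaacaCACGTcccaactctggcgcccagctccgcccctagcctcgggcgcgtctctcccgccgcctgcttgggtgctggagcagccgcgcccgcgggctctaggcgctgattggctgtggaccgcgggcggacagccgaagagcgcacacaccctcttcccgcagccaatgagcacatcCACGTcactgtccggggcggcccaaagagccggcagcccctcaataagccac
Hk1: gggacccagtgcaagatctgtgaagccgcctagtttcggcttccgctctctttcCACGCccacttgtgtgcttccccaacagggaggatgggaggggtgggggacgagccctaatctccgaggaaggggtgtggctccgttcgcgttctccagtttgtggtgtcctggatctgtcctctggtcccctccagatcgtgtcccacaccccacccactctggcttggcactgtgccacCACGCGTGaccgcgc
Hk2 held 2 matches to ACGTG and Hk1 held 3 to GCGTG, 2 of them overlapping. Over the 10 genes, 8 had a match to ACGTG or GCGTG in at least 1 of their 14 windows, against 41.5% of all 27025 genes in the table, and Gpi1 and Tpi1 had none. By window it was 10 of 14, against 38.6% of all 32851 windows. The 10 include overlapping windows of Aldoa that hold the same match, so it was counted more than once. A match is a run of letters in a GC-rich stretch, not a binding site.

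**Figure D2:**
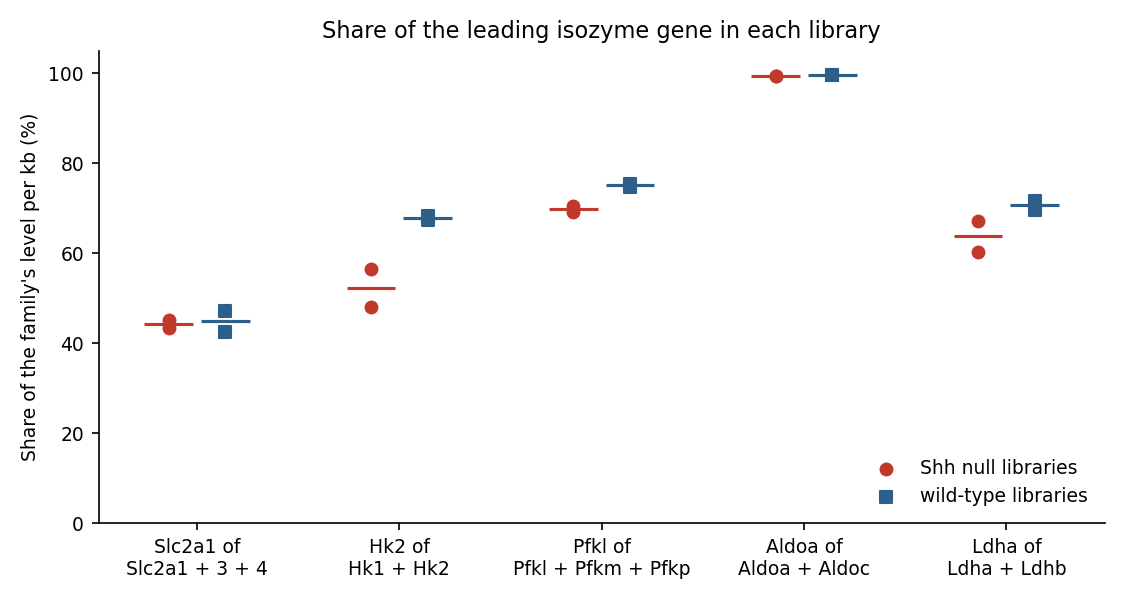
Share of Slc2a1, Hk2, Pfkl, Aldoa and Ldha, each in the level of its family, in percent and per kb of exon. The 2 Shh null libraries are circles, the 2 wild-type libraries squares and the group means lines. Slc2a1 did not lead its family in wild type 1, nor Hk2 its pair in Shh null 1. The Hk2 share was 48.1% and 56.6% in Shh null and 67.3% and 68.2% in wild type, while the Slc2a1 share overlapped.

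Gpi1 encodes glucose-6-phosphate isomerase, which makes fructose 6-phosphate (ENSMUSG00000036427.5, chromosome 7, 34201330 to 34230336, minus strand). It was at 158 and 165 CPM in Shh null and at 158 and 179 CPM in wild type, and had the smallest difference of the 10 genes (log2 fold change −0.07 ± 0.10 SE, limma adjusted p = 0.778). Without wild type 2 its log2 fold change was 0.025, with the opposite sign. Pfkl encodes the liver type of phosphofructokinase, the committed and most regulated step (ENSMUSG00000020277.10, chromosome 10, 77986947 to 78010083, minus strand). It was at 262 and 230 CPM in Shh null and at 251 and 290 CPM in wild type, so the libraries overlapped (log2 fold change −0.14 ± 0.11 SE, adjusted p = 0.546). The log2 fold change of Pfkl was −0.036 without wild type 2 and −0.045 without Shh null 2, and −0.24 without wild type 1 and −0.23 without Shh null 1.

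The muscle-type gene Pfkm lay in the other direction from Pfkl, at 83.2 and 77.1 CPM in Shh null and 61.3 and 73.5 CPM in wild type (limma adjusted p = 0.282). The platelet-type gene Pfkp was at a mean of 7.03 CPM in Shh null and 7.02 CPM in wild type. Per kb of exon, Pfkl made up 70.5% and 69.2% of the 3 genes in Shh null and 75.4% and 74.8% in wild type. The 2 groups were apart, with a difference in the means of −5.22 percentage points (exact two-sided permutation p = 0.333).

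Aldoa encodes the main aldolase, which splits fructose 1,6-bisphosphate into triose phosphates (ENSMUSG00000030695.16, chromosome 7, 126795234 to 126800751, minus strand; a neighbouring gene model carries the same name, and how its reads were counted is not given in the sources used here). It was at 415 and 440 CPM in Shh null and at 520 and 501 CPM in wild type. Both Shh null libraries were lower, with means of 428 ± 17.8 CPM in Shh null and 511 ± 13.3 CPM in wild type (SD, n = 2). The log2 fold change was −0.26 with an SE of 0.10 (adjusted p = 0.201 by limma). Aldoc, the brain-type gene, had means of 4.35 CPM in Shh null and 3.77 CPM in wild type, so Aldoa made up over 99% of the pair per kb in every library. Tpi1, the gene of triose phosphate isomerase (ENSMUSG00000023456.15, chromosome 6, 124810586 to 124814296, minus strand), was at 570 and 594 CPM in Shh null and at 637 and 665 CPM in wild type. These differed 1.12-fold in the means without overlap, and the difference did not pass (log2 fold change −0.16 ± 0.10 SE, adjusted p = 0.423).

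Gapdh encodes the enzyme that oxidizes glyceraldehyde 3-phosphate and makes NADH, and is widely used as a reference for expression (ENSMUSG00000057666.18, chromosome 6, 125161715 to 125166467, minus strand). It was at 828 and 905 CPM in Shh null and at 1119 and 1114 CPM in wild type. The means, 866 ± 54.3 CPM in Shh null and 1116 ± 3.48 CPM in wild type (SD, n = 2), differed 1.29-fold, and the 2 wild-type libraries were closer to each other than for any other gene of the 10. The log2 fold change was −0.37 ± 0.11 SE (limma adjusted p = 0.117; edgeR 0.124; false discovery rate 0.0886 in the authors' deposited table, with a log2 fold change of −0.37). DESeq2 on the recovered reads called it lower (adjusted p = 0.0268), a call rule that took in 3.98% of all tested genes. Over all alternatives its adjusted p ran from 0.0268 to 0.518 and its log2 fold change from −0.43 to −0.27. Processed copies of Gapdh are common in the mouse genome, and how reads shared with them were counted is not given in the sources used here. The ratio of Gapdh to Tpi1, its neighbour in the pathway, was 1.45 and 1.52 in Shh null and 1.76 and 1.67 in wild type. The sperm-type gene Gapdhs had means of 4.26 CPM in Shh null and 3.54 CPM in wild type.

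Pgk1 encodes phosphoglycerate kinase, which makes the first ATP of the pay-off phase, and lies on the X chromosome (ENSMUSG00000062070.12, 106187100 to 106203699, plus strand). It was at 651 and 763 CPM in Shh null and at 784 and 903 CPM in wild type. Both Shh null libraries were lower, with a gap between the groups that was smaller than the spread within either (log2 fold change −0.26 ± 0.12 SE, limma adjusted p = 0.301). With 1 library left out, the log2 fold change of Pgk1 lay between −0.37 (without Shh null 2) and −0.14 (without Shh null 1), and was −0.15 without wild type 2. The groups also differed in sex-linked genes. Xist was at 522 and 468 CPM in Shh null and 225 and 152 CPM in wild type, and 4 Y-linked genes (Kdm5d, Uty, Ddx3y and Eif2s3y) were 2.59-fold to 2.87-fold lower in Shh null; limma called all 5. Their part in the Pgk1 values was not tested.

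None of the tested genes for the steps between Pgk1 and pyruvate was called by limma, edgeR or DESeq2. Pgam1, the gene of the main phosphoglycerate mutase, was at 452 and 488 CPM in Shh null and at 577 and 556 CPM in wild type (limma adjusted p = 0.189). Pgam2, its muscle form, was at a mean of 2.25 CPM in Shh null and 2.14 CPM in wild type. Bpgm, whose enzyme sets 2,3-bisphosphoglycerate in red cells, was at 62.0 and 72.0 CPM in Shh null and at 90.2 and 64.5 CPM in wild type, highest in the library with the high red-cell markers, as was Pklr, the liver and red-cell pyruvate kinase gene, at 6.88 and 10.9 CPM in Shh null and at 18.04 and 5.62 CPM in wild type. Pkm, the general pyruvate kinase gene, was the highest per kb of exon, at a mean of 1264 CPM per kb in Shh null and 1393 CPM per kb in wild type. It was at 3495 and 3077 CPM in Shh null and 3481 and 3761 CPM in wild type, and its libraries overlapped (adjusted p = 0.637). The enolase genes Eno3 and Eno2 had means of 84.4 and 2.96 CPM in Shh null and 90.9 and 1.80 CPM in wild type. Eno1 and Pgk2 were not analysed here.

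**Figure D3:**
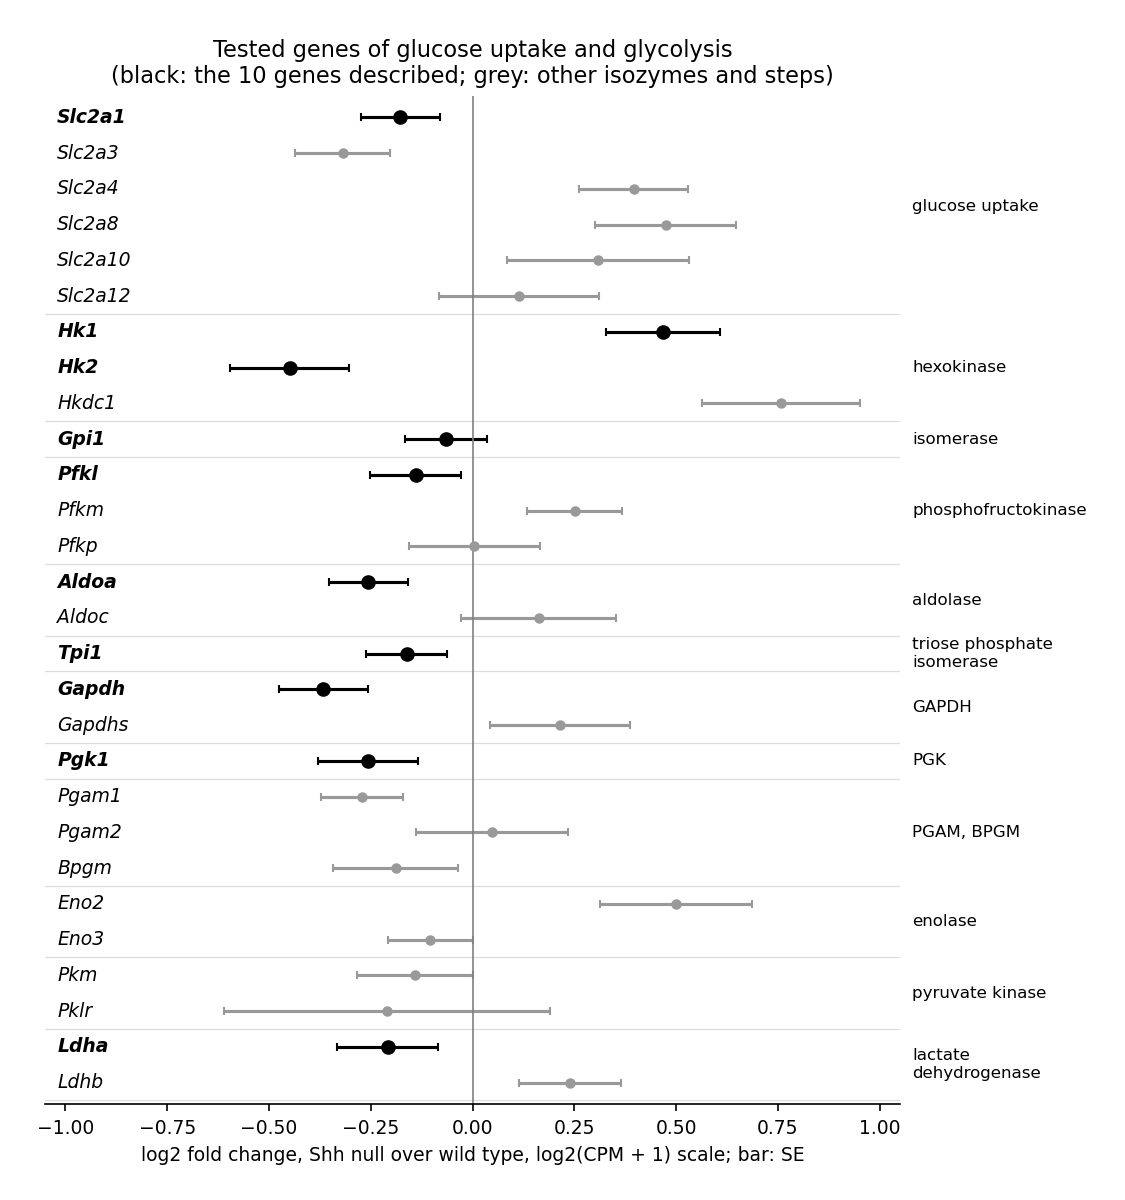
Log2 fold change of Shh null over wild type on the log2(CPM + 1) scale with its SE for the tested genes of glucose uptake and glycolysis that are named here, grouped by step from uptake at the top to lactate at the bottom. The 10 genes are black and the others grey, and 9 of the 10 lie left of 0 with Hk1 to the right at 0.47.

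Ldha encodes the A subunit of lactate dehydrogenase, which favours lactate (ENSMUSG00000063229.15, chromosome 7, 46841475 to 46855627, plus strand). It was at 708 and 839 CPM in Shh null and at 834 and 951 CPM in wild type. The higher Shh null library lay just above the lower wild-type library (log2 fold change −0.21 ± 0.12 SE, limma adjusted p = 0.402). Leaving out Shh null 1 gave −0.09, leaving out wild type 2 gave −0.11, and leaving out Shh null 2 gave −0.33. Ldhb, whose B subunit favours the return to pyruvate, was at 320 and 282 CPM in Shh null and at 227 and 285 CPM in wild type (adjusted p = 0.343). The ratio of Ldha to Ldhb reads was 2.21 and 2.98 in Shh null and 3.68 and 3.34 in wild type. Per kb of exon, Ldha made up 60.4% and 67.2% of the pair in Shh null and 71.7% and 69.7% in wild type, without overlap, a difference in the means of −6.90 percentage points (exact two-sided permutation p = 0.333). Leaving out Shh null 1 gave −3.47 percentage points, and leaving out Shh null 2 gave −10.3 percentage points.

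Gapdh and Ldha are shown as the gene that DESeq2 called and as the only 1 of the 10 with CACGTG in its window, a run of letters found in 6.02% of all windows. Gapdh is chr6:125165774-125166023 on the minus strand and Ldha is chr7:46845554-46845803 on the plus strand, 1 of its 2 listed starts, with capitals and source as for the hexokinases.
Gapdh: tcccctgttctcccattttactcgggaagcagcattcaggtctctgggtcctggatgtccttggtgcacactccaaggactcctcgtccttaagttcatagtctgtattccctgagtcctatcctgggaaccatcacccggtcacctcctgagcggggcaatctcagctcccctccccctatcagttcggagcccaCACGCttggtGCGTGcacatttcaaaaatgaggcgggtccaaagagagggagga
Ldha: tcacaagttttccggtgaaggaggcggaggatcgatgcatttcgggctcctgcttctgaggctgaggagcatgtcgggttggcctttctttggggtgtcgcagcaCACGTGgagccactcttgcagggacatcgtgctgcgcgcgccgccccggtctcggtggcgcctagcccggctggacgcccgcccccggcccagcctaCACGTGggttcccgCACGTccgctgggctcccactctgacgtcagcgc
Gapdh held 2 matches to GCGTG. Ldha held 2 copies of CACGTG and 5 matches to ACGTG, most of them readings of these palindromes on both strands.

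Families compared were carriers, hexokinases, phosphofructokinases, aldolases and lactate dehydrogenases. The shares of Hk2, Pfkl, Aldoa and Ldha were lower in both Shh null libraries than in both wild-type libraries, and that of Slc2a1 was not. That of Aldoa was 99.28% and 99.47% in Shh null and 99.51% and 99.59% in wild type. For each of the separated shares the exact two-sided permutation p was 0.333, the smallest possible. These shares are ratios within a library, so a scaling factor common to all genes of a library cancels out. A shift that depends on level does not cancel, and the shares were not computed with quantile normalization. Of tested genes with a mean of at least 100 CPM, 45.1% were lower in both Shh null libraries, against 25.0% of all tested genes. How often the shares of other gene families separate was not computed. The part of abundance in the shares was not tested. The families were compared after the values of their genes had been seen, and they share the same 4 libraries. Summed over the 10 genes, the level was 3909 and 4241 CPM in Shh null and 4628 and 4975 CPM in wild type, or 0.406% and 0.431% of all reads in Shh null and 0.445% and 0.489% in wild type. The wild type 2 library was the highest within most of the set, above the gene's own mean over the 4 libraries in 9 of 10 genes, whereas wild type 1 was in 7, and each Shh null library in 2.

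Over 7 lists of neighbouring genes, with 6 to 20 tested genes each, limma called 3 genes and at most 1 per list. Over all tested genes it called 2.48%. Of the 19 tested other isozymes and steps, 0 were called by limma, edgeR or DESeq2, with a median log2 fold change of 0.16. At an unadjusted limma p under 0.05, 4 were higher and 2 lower, against 9.50% and 9.02% of all tested genes. Of the 19, 6 lay above wild type in both Shh null libraries and 2 below, against 25.1% and 25.0% of all tested genes. Of 8 tested regulators of glycolytic flux, 1 rose, 0 fell and 7 were not called: Txnip, whose product restrains glucose uptake, was at 62.1 and 59.6 CPM in Shh null and at 42.0 and 39.7 CPM in wild type (1.49-fold higher; log2 fold change 0.56 ± 0.11 SE, limma adjusted p = 0.0234). Txnip no longer passed when Shh null 1 was left out (adjusted p = 0.232) or when Shh null 2 was (0.103). The tested PFKFB genes, which set the activator of phosphofructokinase, were not called.

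Of 19 tested genes of lactate and pyruvate handling, 1 fell by limma, against 1.24% of all tested genes, and 18 were not called. Emb, which encodes embigin, a partner of monocarboxylate carriers at the membrane, was at 74.1 and 83.1 CPM in Shh null and at 133 and 139 CPM in wild type (1.73-fold lower; log2 fold change −0.79 ± 0.10 SE, limma adjusted p = 0.00391). Emb no longer passed when Shh null 1 was left out (adjusted p = 0.083). Slc16a1, the gene of the lactate carrier MCT1 and named after its values were seen, was at 151 and 171 CPM in Shh null and at 208 and 214 CPM in wild type, which limma did not call (adjusted p = 0.0798) and DESeq2 did (0.0377). The list had 8 of 19 genes below wild type in both Shh null libraries and 3 above, against 25.0% and 25.1% of all tested genes, with a median log2 fold change of −0.10.

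The pentose phosphate pathway, which branches off at glucose 6-phosphate to make NADPH and ribose, had 6 of 8 tested genes below wild type in both Shh null libraries, against 25.0% of all tested genes, and 1 above, against 25.1%. By limma 0 of these 8 were called. At an unadjusted limma p under 0.05, 3 were lower, against 9.02% of all tested genes. By edgeR 0 were called and by DESeq2 1, against 2.45% and 3.98% of all. Tkt, the transketolase gene, had the largest difference, at 278 and 306 CPM in Shh null and at 420 and 367 CPM in wild type (log2 fold change −0.43 ± 0.11 SE, limma adjusted p = 0.0742, DESeq2 0.0155). Pgd and the X-linked G6pdx, which encode the NADPH-making dehydrogenases, had means of 107 and 53.6 CPM in Shh null and 135 and 63.3 CPM in wild type. The tricarboxylic acid cycle oxidizes what pyruvate delivers. In it 9 of 16 tested genes were below wild type in both Shh null libraries and 0 above. Over all tested genes these shares were 25.0% and 25.1%. Of tested genes with a mean of at least 100 CPM, 45.1% were below and 9.69% above. The part of abundance in the values of both pathways was not tested. None of the 16 was called by limma, edgeR or DESeq2. Before adjustment 1 of them had a limma p under 0.05, in the lower direction, against 9.02% of all tested genes. Idh3a, Cs and Idh3g had the largest differences, with means of 85.1, 309 and 93.0 CPM in Shh null and 110.2, 356 and 107 CPM in wild type.

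In the hypoxia pathway 6 of 20 tested genes were above wild type in both Shh null libraries and 2 below, against 25.1% and 25.0% of all tested genes. Of these 20, 0 were called by limma or edgeR and 1, Ddit4, by DESeq2, which called 3.98% of all tested genes. Before adjustment limma gave 2 higher and 1 lower at p under 0.05, against 9.50% and 9.02% of all tested genes. The median log2 fold change of the 20 was 0.05. Ddit4, a stress-induced inhibitor of mTOR signalling, was at 33.6 and 28.9 CPM in Shh null and at 16.1 and 21.8 CPM in wild type (limma adjusted p = 0.0522). Arnt, the partner subunit of the hypoxia-inducible factors, had means of 28.6 CPM in Shh null and 21.8 CPM in wild type, and Ero1l, a gene of oxidative protein folding, 57.0 CPM in Shh null and 74.9 CPM in wild type. Hif1a, which encodes the oxygen-regulated subunit, and the hypoxia target Vegfa, both named after their values were seen, had means of 323 and 51.4 CPM in Shh null and 358 and 51.3 CPM in wild type.

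In the Myc family 1 of 6 tested genes rose by limma, against 1.24% of all tested genes, and 5 were not called. At an unadjusted limma p under 0.05, 2 were higher and 2 lower, against 9.50% and 9.02% of all tested genes. By edgeR 1 was called and by DESeq2 3, against 2.45% and 3.98% of all. Mxd4, a repressor that competes with Myc for its partner Max, was at 78.5 and 58.3 CPM in Shh null and at 31.0 and 38.8 CPM in wild type (1.96-fold higher; log2 fold change 0.94 ± 0.16 SE, limma adjusted p = 0.0156). Mxd4 no longer passed when Shh null 1 was left out (adjusted p = 0.211). Mycn, named after its values were seen, was at 38.2 and 53.8 CPM in Shh null and at 77.7 and 68.1 CPM in wild type, not called by limma (adjusted p = 0.0566) and called lower by DESeq2 (0.00518). Mycl (Mycl1 in the table), likewise named after its values were seen, was at 30.8 and 29.6 CPM in Shh null and at 41.9 and 41.5 CPM in wild type (limma adjusted p = 0.068, DESeq2 0.0455). Myc itself had means of 9.78 CPM in Shh null and 9.61 CPM in wild type.

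**Figure D4:**
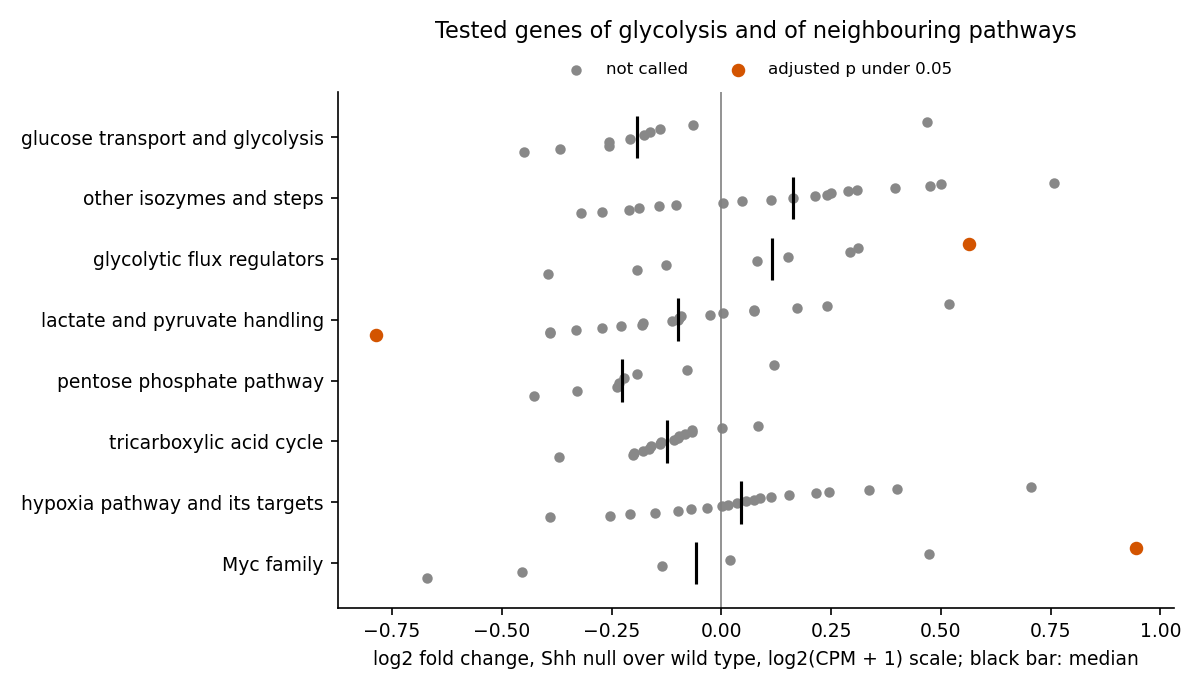
Log2 fold change of Shh null over wild type for each tested gene of the 10 and of 7 neighbouring lists, with the median of each list as a black bar and genes with an adjusted p under 0.05 in orange. The medians were −0.19 for the 10 genes, −0.23 for the pentose phosphate pathway and 0.05 for the hypoxia pathway; the 3 called genes are Emb, Txnip and Mxd4.

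Under 9 alternative settings and the 4 fits that each left out 1 library, Gpi1 was the 1 gene to change sign, with quantile normalization (log2 fold change 0.018) and without wild type 2 (0.025). Among these fits Gapdh was called only by DESeq2, Hk2 only without wild type 1 and Hk1 only without wild type 2, and no other gene of the 10 was called under any of these. The share of all tested genes called was 2.42% and 2.40% with pseudocounts of 0.5 and 0.1, 0.960% with no filter on low values, 2.81% with a filter of 5 CPM, 1.82% with quantile normalization, 2.56% with median-ratio size factors and 2.99% with the replicate block. It was 0.423% without Shh null 1, 0.749% without Shh null 2, 3.47% without wild type 1 and 6.06% without wild type 2.

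**Figure D5:**
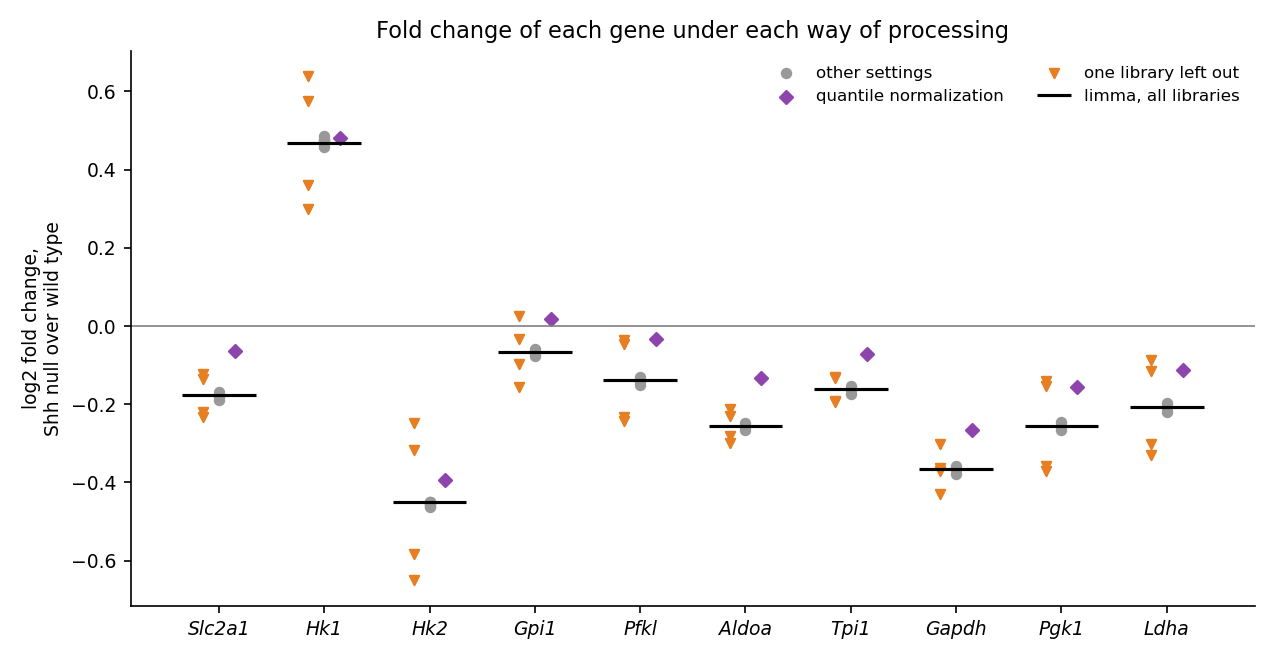
Log2 fold change of each of the 10 genes with all libraries in limma (black line), with 1 library left out (triangles), with quantile normalization (diamonds) and under the other settings (circles). Hk1 stays above 0 and Gpi1 is the gene that crosses it.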

How the data were processed

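RNA was extracted with TRIzol and sequenced on Illumina instruments, per the labels' protocols. Per the submitters' processing notes build mm10 was used, with edgeR 3.4.2, HTSeq 0.5.4p5, TopHat2 2.0.9 and SAMtools. Which annotation and strand rule were used is not stated there, and overlapping genes or processed copies may share reads. The authors deposited a normalized signal per gene and library, whose values were whole multiples of 1 read in 100% of cases (tolerance 0.001 reads), and it was read as CPM. The authors also deposited log2 fold changes with p-values and false discovery rates.

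Genes of at least 1 CPM in 2 libraries (13224) were fitted as log2(CPM + 1) with limma 3.58.1 in R 4.3.3, genotype as the only term, p-values adjusted by Benjamini-Hochberg over all of them. Folds are ratios of mean CPM; fitted log2 values understate changes of low genes. The recovered reads were also fitted with edgeR 4.0.16 and with DESeq2 1.42.0. The fits were tested on simulated data. Levels per kb use the union of a gene's exons in the basic annotation of GENCODE M21, from protein-coding and long noncoding transcripts only. Coordinates come from the same release (mm10). A count of 0 allows up to 3 reads, or 0.105 to 0.165 CPM. The 10 genes, the lists and the tests were chosen with earlier results of these data known. Of 9 lists and 9 marker lists all but 5 genes were found, 2 by an older symbol. Named beside the 10 were the called genes of a list or, with none called, the 3 with the largest difference, and the tested isozymes, of which 1 is not reported here by name.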

Additional observations from a re-analysis of the deposited data

How the results depend on the processing

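Over all tested genes 328 were called by limma, against 170 with no filter on low values, 526 by DESeq2, and 56 to 802 when 1 library was left out (56 without Shh null 1, 99 without Shh null 2, 802 without wild type 2). Of the 10 glycolytic genes 0 were called, against 1 by DESeq2 and 0 to 1 when 1 library was left out. The median log2 fold change of the 10 was −0.19, and −0.09 with quantile normalization, which left 3 in place of 6 genes with both Shh null libraries below wild type. The log2 fold change of Gpi1 changed sign with quantile normalization (0.018) and ran between −0.15 and 0.025 when 1 library was left out, the higher value without wild type 2. The cause was not tested.

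With the replicate block 396 genes and 0 of the 10 were called; the labels do not say that a number marks a shared litter or batch. Deviations of same-numbered libraries correlated at −0.20 over 13224 genes. A crossed block, which pairs libraries of unlike number, was added after the data were seen because this correlation was negative. It called 1386 of the 13224 tested genes and 4 of the 10 (1 higher and 3 lower). The pairing was picked from the spread of these same libraries, so its calls are no independent result.

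The shares of isozymes, also added after the data were seen, kept their sign in reads as well as per kb except that of Slc2a1 (−0.52 percentage points per kb and 0.16 in reads). That of Ldha ran between −10.3 and −3.47 percentage points when 1 library was left out. With 2 libraries a group, 1 library can decide a call.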

Other observations

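The 5 genes nearest to the mean course of the 10 glycolytic genes over the 4 libraries, by Euclidean distance of log2(CPM + 1) deviations among 9256 other tested genes with a mean of at least 10 CPM, were Vrk1, Bola3, Zfp106, Pak2 and Ddx1. Vrk1, a nuclear kinase gene, was nearest at a distance of 0.019, with 125 and 131 CPM in Shh null and 138 and 153 CPM in wild type. Ddx1, an RNA helicase gene, was at 476 and 500.2 CPM in Shh null and at 524 and 589 CPM in wild type. With 4 points the measure says nothing of shared function.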
